A study of Oryctolagus cuniculus with 3 samples.

Results

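The genes described here code for the proteins of the mitochondrial ribosome, in RCE1(5T5), a cell line of rabbit corneal epithelium. Members were all genes of the deposited tables whose name begins with MRPL or MRPS and a digit. The rule found 71 genes of the 20536 gene names in the tables, and all 71 passed the minimum level of 1 CPM in at least 1 library. Of these, 45 code for proteins of the large subunit and 25 for proteins of the small subunit. By name alone the last, MRPS36, is also a member, although its product is a subunit of the 2-oxoglutarate dehydrogenase complex. MRPS30 and MRPS18A were counted with the large subunit, where their proteins sit. MRPL12, MRPL15, MRPL23, MRPL28, MRPL34, MRPL54 and MRPS34 are not analysed here.

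RNA was sequenced from 3 cultures, 1 for each stage of differentiation: day 4 (non-differentiated), day 6 (committed) and day 10 (terminally differentiated). In all 3 the cells grew on a feeder layer of mouse 3T3 fibroblasts arrested with mitomycin C, in medium with fetal calf serum, insulin, transferrin, hydrocortisone, triiodothyronine, cholera toxin, adenine and EGF. EDTA was used to remove the feeder cells, and RNA was then isolated with Trizol. The comparisons ask how expression changed as dividing cells committed and then differentiated. Each stage has a single library, so differences have no replicate check, no test was run, and stage, day and library cannot be told apart. Less mRNA of a gene per cell and fewer cells that make it cannot be told apart either, since RNA was extracted from whole cultures.

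The libraries of days 4, 6 and 10 held 10171693, 12582706 and 10899578 fragments. Levels are CPM (fragments of a gene, summed over its coding sequences, per 1000000 fragments) scaled by trimmed mean of M values (TMM). Differences between stages are differences of log2(CPM + 1), and the words rose and fell are kept for differences of at least 2-fold. Folds of single genes are ratios of CPM, and brackets give their exact 95% Clopper-Pearson intervals, which cover counting error only. Among 8 corneal markers in the tables, 7 rose at least 2-fold between day 4 and day 6, against 8.06% of all measured genes. By day 10, 6 of the 8 had risen relative to day 4, against 17.1% of all measured genes. KRT12 had no fragment on day 4. Most fibroblast markers moved the other way. The 12 listed genes summed to 4867, 2915 and 1635 CPM on days 4, 6 and 10, with LUM at 0 fragments in every library. Of the 11 measured genes, 4 fell between day 4 and day 6, against 6.73% of all measured genes. By day 10, 10 of the 11 had fallen relative to day 4, against 15.8% of all measured genes. The other measured marker, THY1, rose 3.92-fold [3.37 to 4.58] between day 4 and day 10. The part of feeder RNA in the levels below was not tested.

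The mitochondrial ribosome translates the few messenger RNAs that mitochondrial DNA encodes, all of which code for subunits of the respiratory chain and ATP synthase. Its RNAs come from the mitochondrial genome, whereas every one of its proteins is encoded in the nucleus, translated in the cytosol and imported. Many of these proteins have counterparts in bacterial ribosomes, and the others were added in the course of mitochondrial evolution. The large subunit forms peptide bonds and holds the exit tunnel at the inner membrane, and the small subunit binds messenger RNA and decodes it.

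Messenger RNA for the mitochondrial ribosome was lower at each later stage. The 71 genes summed to 2984, 2580 and 1896.5 CPM on days 4, 6 and 10. As a share of all scaled counts this was 0.32%, 0.247% and 0.185%. The sum on day 10 was 0.636 of that on day 4 [0.624 to 0.647]. The ratio was 0.865 [0.851 to 0.878] for day 6 over day 4 and 0.735 [0.722 to 0.748] for day 10 over day 6. In the authors' deposited TPM (a level corrected for coding length), the same genes summed to 5096 on day 4, 3541 on day 6 and 2519 on day 10, and the day 10 sum was 0.494 of that on day 4. Which step was larger depends on the unit: in CPM it was the second, and in TPM the ratios were 0.695 for day 6 over day 4 and 0.711 for day 10 over day 6.

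By day 10, 25 of the 71 genes had fallen and 0 had risen relative to day 4. Over all 12818 measured genes, 15.8% fell and 17.1% rose in that comparison. With the line at 1.5-fold, 38 members were past it downward and 1 upward, against 27.6% and 29.0% of all measured genes. The median difference of the 71 genes was -0.66 on the log2 scale, where the median of all measured genes was 0.01. A lower level of any size was seen in 65 of the 71, against 49.5% of all measured genes, and a higher level in 6, against 50.5%. The size of the difference depends on the unit: with TPM the median of all measured genes itself moved by -0.31, and the members' median lay 0.75 below it, compared with 0.67 below in the main scaling. In TPM 37 members fell and 0 rose by day 10, against 23.9% and 11.2% of all measured genes.

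In CPM the step to commitment was the smaller of both, with a median difference of -0.18 against -0.40 for the next step; in TPM it was the larger, with -0.55 against -0.43. Between day 4 and day 6, 5 of the 71 genes fell and 0 rose, which is 7.04% against a background of 6.73% for falls and 8.06% for rises. The share that fell was therefore close to that of all genes. Lower levels of any size were found in 52 of the 71, against 50.0% of all measured genes, and higher levels in 19, against 49.7%. At 1.5-fold, 17 members were past the line downward and 1 upward, against 18.0% and 19.6%. In TPM 11 members fell at this step and 0 rose, against 13.2% and 4.53% of all measured genes, and without TMM 6 fell and 0 rose, against 9.49% and 6.14%. The genes that fell were MRPL46, MRPS27, MRPL18, MRPS6 and MRPS12. MRPS6 and MRPS12 were just past the threshold, at -1.043 and -1.018, and MRPS23 lay just short of it at -0.942.

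Between day 6 and day 10, 12 genes fell and 0 rose, against 7.1% and 8.25% of all measured genes. Lower levels of any size were found in 61 of the 71, against 50.6%, and higher levels in 10, against 49.4%; the median difference was -0.40. At 1.5-fold, 27 members were past the line downward and 2 upward, against 19.2% and 19.1%. The genes that fell were MRPL4, MRPL24, MRPL2, MRPL55, MRPL43, MRPL21, MRPL57 and MRPL46 of the large subunit and MRPS24, MRPS25, MRPS27 and MRPS2 of the small subunit. Only MRPL46 and MRPS27 were past the 2-fold line at both steps on the log2(CPM + 1) scale. By the ratio of CPM, MRPL36 was also past it at both steps, from few fragments. It was 2.14-fold [1.37 to 3.42] and then 2.48-fold [1.21 to 5.47] lower. MRPS14 missed it in this comparison with -0.999.

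In CPM, 43 of the 71 genes were lower on day 6 than on day 4 and lower again on day 10, a pattern found in 27.9% of all measured genes. A further 18 were higher on day 6 and then lower (background 22.8%), and 9 were lower on day 6 and then higher (background 22.1%). MRPL47 alone was higher at each step, a pattern that 26.9% of all measured genes had. Both steps share the day 6 library. These patterns depend on the unit. In TPM 60 members were lower at both steps (35.5% of all measured genes), 2 were higher on day 6 and then lower (14.1%), 9 were lower on day 6 and then higher (27.7%) and 0 were higher at both (17.1%). Of the 18 that were higher on day 6 in CPM, MRPL43 and MRPL57 kept that pattern in TPM and the other 16 were lower on day 6 than on day 4. MRPL47 was likewise lower on day 6 than on day 4 in TPM and without TMM.

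**Figure D1:**
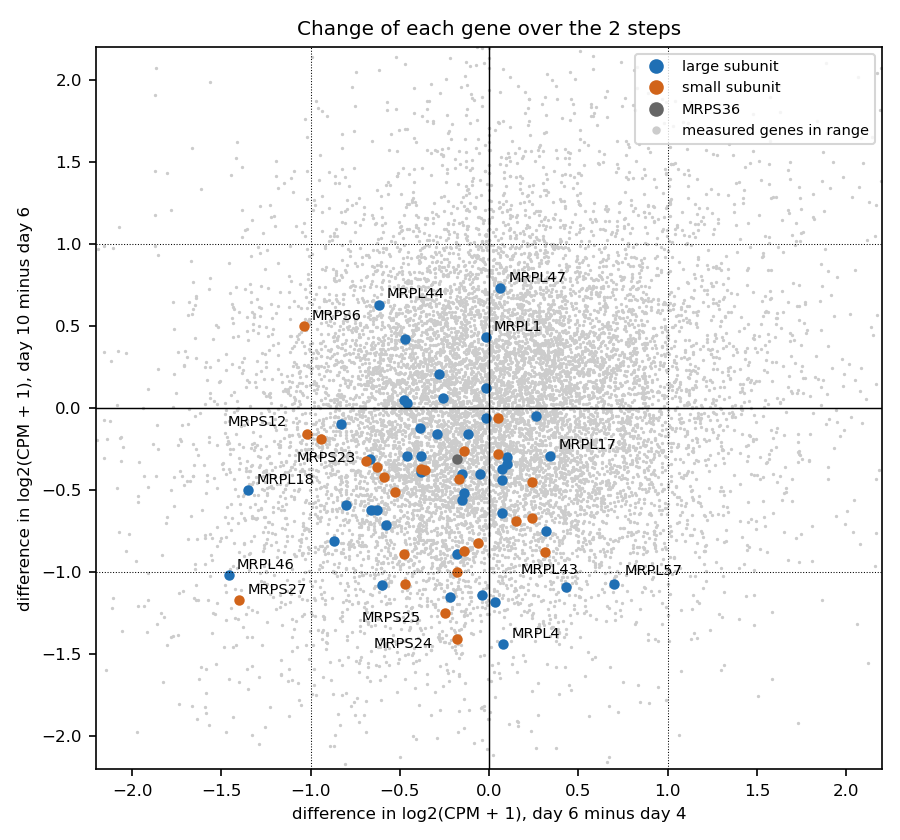
Difference in log2(CPM + 1) of each gene between day 6 and day 4 (horizontal axis) and between day 10 and day 6 (vertical axis), with 1 library per stage; blue points are large-subunit genes, orange points small-subunit genes, the dark grey point MRPS36 and light grey points the measured genes within the plotted range. Dotted lines mark 2-fold; most of the 71 genes lie in the lower left, MRPL46 and MRPS27 beyond both lines, and none lies beyond a line on the rising side.

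Among large-subunit proteins with bacterial counterparts, 9 of 25 genes fell by day 10 (median -0.57), 36.0% against 15.8% of all measured genes. Of the 25, 5 fell between day 6 and day 10, against 7.1% of all measured genes at that step. MRPL18, the counterpart of bacterial L18, had 56.5, 21.6 and 15.0 CPM on days 4, 6 and 10. Most of its fall came at the first step, which was 2.62-fold [2.26 to 3.04]; over the whole interval it was 3.77-fold [3.17 to 4.52]. MRPL18 has 2 coding sequences in the tables, at -1.81 and -1.74 on the log2 scale over the whole interval. Fragments can be split between the sequences of a gene, so these are not separate measurements.

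Several genes of ribosomal core proteins were close in CPM on days 4 and 6 and fell afterwards. MRPL2, counterpart of the L2 protein beside the peptidyl transferase centre, had 42.4, 36.2 and 15.8 CPM on days 4, 6 and 10, a fall of 2.29-fold [1.91 to 2.75] at the second step. MRPL4, which reaches toward the exit tunnel, was at 40.2, 42.5 and 15.1 CPM on days 4, 6 and 10, and its second step was 2.82-fold down [2.35 to 3.39]. MRPL24 followed the same course, with 73.1, 74.8 and 32.5 CPM on days 4, 6 and 10, a second step of 2.3-fold down [2.03 to 2.61]. MRPL55, the counterpart of bacterial L31, stood at 31.8, 30.9 and 13.5 CPM, 2.29-fold down at the second step [1.88 to 2.8]. In CPM most of the difference in these genes lay after commitment.

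MRPL21 was lower at each step, with 23.3, 15.0 and 6.59 CPM on days 4, 6 and 10, and ended 3.54-fold lower [2.7 to 4.68]. MRPL19 had 48.5, 27.4 and 17.9 CPM on days 4, 6 and 10 and ended 2.71-fold lower [2.29 to 3.22]. MRPL20 had 98.01, 86.2 and 46.2 CPM on days 4, 6 and 10, 2.12-fold lower on day 10 than on day 4 [1.91 to 2.37]. MRPL36 was the gene with the fewest fragments, 60, 31 and 11 on days 4, 6 and 10 (5.51, 2.57 and 1.04 CPM). Its ratio of CPM was 5.31-fold down by day 10, but the interval of 2.77 to 11.2 is wide because so few fragments stand behind it. MRPL3, whose bacterial counterpart lies at the catalytic core, was just short of the threshold at 61.9, 38.6 and 31.0 CPM (difference -0.98).

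Other conserved large-subunit genes moved less. MRPL11, a protein of the stalk base where elongation factors bind, had 70.76, 64.1 and 44.5 CPM on days 4, 6 and 10, and its neighbour in the stalk, MRPL10, had 28.0, 27.0 and 20.2 CPM. MRPL9 held 71.3, 74.8 and 47.7 CPM, and MRPL32, which a protease of the inner membrane must process before assembly, held 45.0, 40.4 and 27.1 CPM on days 4, 6 and 10. MRPL13, MRPL14, MRPL16, MRPL22, MRPL27 and MRPL35 all ended between 0.697 and 0.863 of their day 4 level.

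In CPM, 4 conserved large-subunit genes were higher on day 10 than on day 4: MRPL47, MRPL1, MRPL30 and MRPL17. MRPL17, highest of the members by TPM in each library, had 136, 172 and 141 CPM on days 4, 6 and 10, a day 10 level 1.04 times that of day 4 [0.965 to 1.12]. MRPL47, a protein at the tunnel exit, had 23.0, 24.1 and 40.6 CPM on days 4, 6 and 10. That is 1.76 times its day 4 level [1.5 to 2.07], the largest increase of the 71 genes, yet short of 2-fold. MRPL1, which in bacteria forms the mobile stalk beside the tRNA exit site, had 32.4, 32.0 and 43.3 CPM on days 4, 6 and 10, 1.34 times its day 4 level [1.16 to 1.54]. In TPM MRPL47 and MRPL1 were also higher on day 10 than on day 4, at 40.9 against 30.2 and at 34.8 against 33.7, whereas MRPL17 was lower, at 205.5 against 262.3. MRPL30 was at 36.2, 35.7 and 38.8 CPM on days 4, 6 and 10, but at 57.6 TPM on day 10 against 68.0 TPM on day 4. MRPL33 was lowest on day 6 and ended slightly below its start, with 40.5, 29.0 and 39.3 CPM, and with 125.7 TPM on day 10 against 173.0 TPM on day 4.

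The other 20 large-subunit genes were listed as mitochondrial additions, among them MRPS18A, a paralog of a conserved protein. Of these, 4 fell by day 10 (median -0.49), a share close to the 15.8% of all measured genes. MRPL46 fell most of all large-subunit genes: it had 19.3, 6.39 and 2.64 CPM on days 4, 6 and 10, from 210, 77 and 28 fragments. Its level was 3.02-fold down at the first step [2.31 to 3.97], 2.42-fold down at the second [1.55 to 3.88] and 7.31-fold down overall [4.91 to 11.3]. MRPL38 had 65.2, 41.7 and 26.8 CPM on days 4, 6 and 10 and was 2.43-fold lower by day 10 [2.11 to 2.79]. MRPL51 had 41.1, 27.2 and 16.3 CPM on those days, 2.52-fold lower [2.11 to 3.02], and MRPL50 had 13.3, 8.04 and 4.9 CPM, 2.72-fold lower [1.97 to 3.81]. In CPM these losses were spread over both steps, unlike those of MRPL2 or MRPL4.

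MRPL57 and MRPL43 had their highest CPM in committed cells. MRPL57 was at 16.2, 27.0 and 12.3 CPM on days 4, 6 and 10, with a step up of 1.67-fold [1.38 to 2.02] that did not reach the threshold and a fall of 2.18-fold [1.78 to 2.7] after it. MRPL43 went through 33.1, 45.1 and 20.6 CPM, a fall of 2.19-fold [1.87 to 2.57] at the second step. MRPL53 had 20.3, 25.5 and 14.8 CPM on days 4, 6 and 10, but in TPM it was lower on day 6 than on day 4.

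MRPL44 was lowest on day 6 instead. This protein, which carries a fold of the ribonuclease III family, had 20.7, 13.2 and 21.0 CPM on days 4, 6 and 10. MRPL45, which tethers the ribosome to the inner membrane, had 61.3, 43.6 and 45.3 CPM, and MRPL58, a peptidyl-tRNA hydrolase that rescues stalled ribosomes, had 48.1, 36.7 and 29.9 CPM on days 4, 6 and 10. MRPL37 had 104, 93.8 and 70.8 CPM on days 4, 6 and 10. MRPS30 was close to the threshold, with 46.1, 25.5 and 23.6 CPM (difference -0.93). MRPL39 and MRPL40 ended at 0.578 and 0.584 of their day 4 levels, MRPL41, MRPL49 and MRPL52 at 0.764, 0.863 and 0.82, and MRPL42 and MRPL48 at 1.16 and 0.949. MRPL42 and MRPL44, higher in CPM on day 10 than on day 4, were lower in TPM, at 59.3 against 68.4 and at 17.4 against 22.5.

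**Figure D2:**
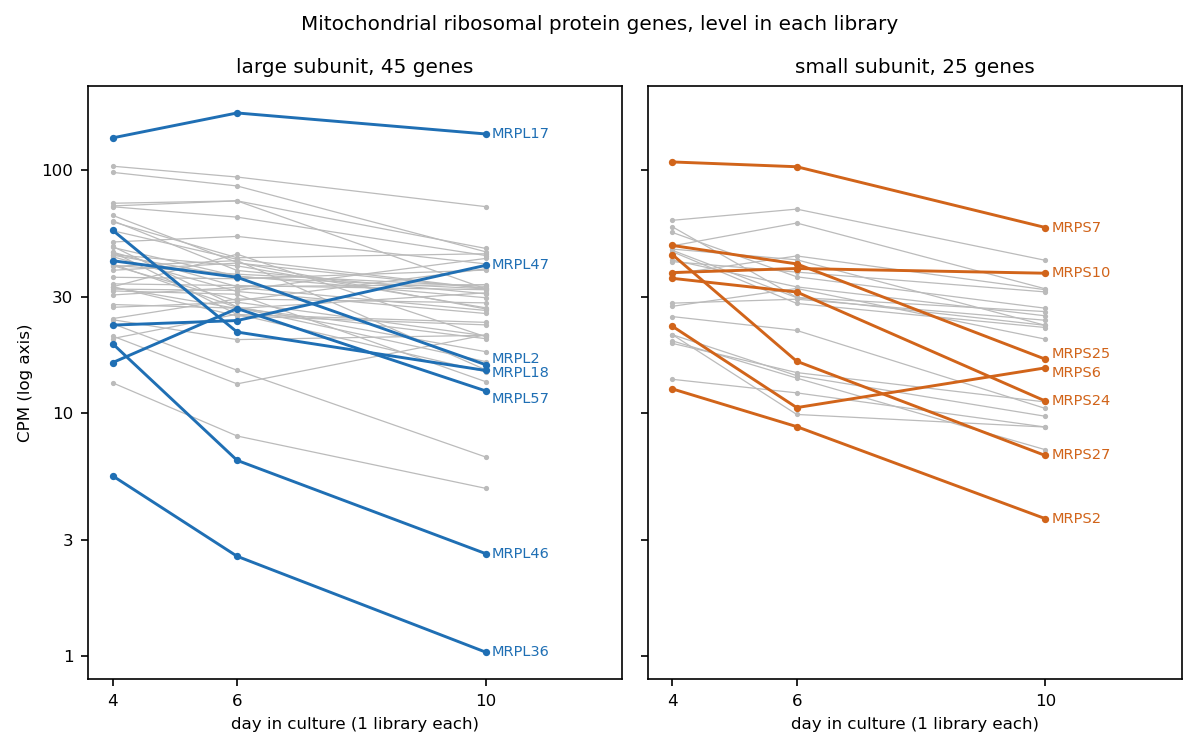
CPM on a log axis in each of the 3 libraries (days 4, 6 and 10) for the 45 large-subunit genes (left) and the 25 small-subunit genes (right); each line is a gene, and coloured lines are named at their day 10 level. MRPL17 and MRPS7 have the highest CPM in their panels, a scale not corrected for length, MRPL46 and MRPS27 descend steeply at both steps, and MRPL47 ends above its start.

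In the small subunit, all 25 genes were lower on day 10 than on day 4, and 12 had fallen (median -1.0). In the large subunit 39 of 45 were lower and 13 had fallen (median -0.55). The shares that fell were 48.0% and 28.9%, against 15.8% of all measured genes. The summed levels were 535 CPM on day 10, against 974 CPM on day 4, for the small subunit, a ratio of 0.549 [0.532 to 0.567]. For the large subunit they were 1341 CPM on day 10, against 1981 CPM on day 4, a ratio of 0.677 [0.663 to 0.691]. The subunits differed mainly at the second step, with ratios of 0.659 [0.637 to 0.681] for the small and 0.77 [0.754 to 0.786] for the large; at the first step these were 0.834 and 0.879. Whether the gap between subunits exceeds what cultures of the same stage would show could not be tested with 1 library each.

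Of the 16 small-subunit genes with bacterial counterparts, 8 fell by day 10 (median -0.94), 50.0% against 15.8% of all measured genes. MRPS24, which lies where messenger RNA enters, had 35.9, 31.5 and 11.2 CPM on days 4, 6 and 10. In CPM its fall lay almost wholly at the second step, 2.81-fold [2.28 to 3.48]. In TPM it was lower at both steps, at 89.1, 62.0 and 21.7 on days 4, 6 and 10. MRPS2, lowest of the members by TPM in each library, had 12.6, 8.79 and 3.67 CPM on days 4, 6 and 10 and ended 3.42-fold lower [2.38 to 5.02]. MRPS21 had 19.8, 13.9 and 7.06 CPM and ended 2.81-fold lower [2.15 to 3.7]. MRPS14 had 24.96, 21.9 and 10.5 CPM and ended 2.39-fold lower [1.91 to 3.01].

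MRPS12, a protein of the decoding centre, fell early instead, with 21.0, 9.87 and 8.76 CPM on days 4, 6 and 10. Its first step was 2.13-fold down [1.7 to 2.68]. MRPS6 fell by about as much, 2.16-fold [1.74 to 2.7], but came part of the way back, at 22.8, 10.5 and 15.4 CPM on days 4, 6 and 10. MRPS17 fell by day 10, with 21.0, 14.3 and 9.7 CPM on days 4, 6 and 10. MRPS5 had 55.4, 36.4 and 27.03 CPM and MRPS9 had 46.2, 28.3 and 22.5 CPM, both 2.05-fold lower by day 10. MRPS9 was the closest to the line inside it, at -1.004.

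MRPS7, a protein of the head of the small subunit, had 108, 103 and 58.1 CPM on days 4, 6 and 10, 0.537 of its day 4 level [0.486 to 0.593]. MRPS11 and MRPS16 had their highest CPM on day 6, at 48.8, 60.6 and 32.5 CPM and at 62.2, 69.2 and 42.6 CPM on days 4, 6 and 10. In TPM both were lower on day 6 than on day 4, MRPS11 at 82.9 against 86.8 and MRPS16 at 132.1 against 152.0. MRPS10 moved least in CPM, with 37.9, 39.4 and 37.7, and had 62.8, 51.1 and 48.6 TPM. MRPS15 and MRPS28 ended at 0.589 and 0.574 of their day 4 levels.

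The other 9 small-subunit genes were listed as mitochondrial additions, among them MRPS18B, a paralog of MRPS18C. Of these, 4 fell by day 10 (median -1.0), 44.4% against 15.8% of all measured genes. MRPS27, an RNA-binding protein with pentatricopeptide repeats, had the largest fall of the 71 genes on the log2(CPM + 1) scale, at -2.58. It had 44.9, 16.3 and 6.69 CPM on days 4, 6 and 10, 2.75-fold down at the first step [2.32 to 3.26], 2.44-fold down at the second [1.85 to 3.25] and 6.71-fold down overall [5.22 to 8.73]. Its 2 coding sequences, which are not separate measurements, gave -2.41 and -2.46 for the whole interval. MRPS25 had 49.0, 41.1 and 16.7 CPM on days 4, 6 and 10 and ended 2.94-fold lower [2.48 to 3.5]. MRPS23 lost its level early, with 58.5, 29.9 and 26.2 CPM, and ended 2.23-fold lower [1.94 to 2.58].

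MRPS35 also fell, with 47.4, 42.8 and 23.0 CPM on days 4, 6 and 10. MRPS22, MRPS26, MRPS31 and MRPS33 ended between 0.636 and 0.862 of their day 4 levels. MRPS36, whose product works in the citric acid cycle and not in the ribosome, had 29.0, 25.5 and 20.3 CPM and ended at 0.702 of its day 4 level [0.587 to 0.837].

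The MRPS18 paralogs, which descend from the same bacterial protein, differed in the size of their changes in CPM. MRPS18A had 34.0, 33.5 and 32.2 CPM on days 4, 6 and 10. MRPS18C, which sits where the bacterial protein does, had 28.4, 29.4 and 24.1 CPM. MRPS18B had 46.8, 29.9 and 23.0 CPM on days 4, 6 and 10, 2.04-fold lower by day 10 [1.75 to 2.38] on the CPM ratio and just outside the call at -0.995 on the log2(CPM + 1) scale. The day 10 over day 4 ratios were 0.491 [0.42 to 0.573] for MRPS18B, 0.946 [0.814 to 1.1] for MRPS18A and 0.85 [0.718 to 1.01] for MRPS18C. The interval of MRPS18B lies below both others, but the intervals cover counting error only. Whether the paralogs differ beyond the spread between cultures was not tested. In TPM each was lower on day 10 than on day 4. MRPS18A was at 39.2 against 54.7, MRPS18B at 20.8 against 53.8 and MRPS18C at 38.2 against 58.8.

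**Figure D3:**
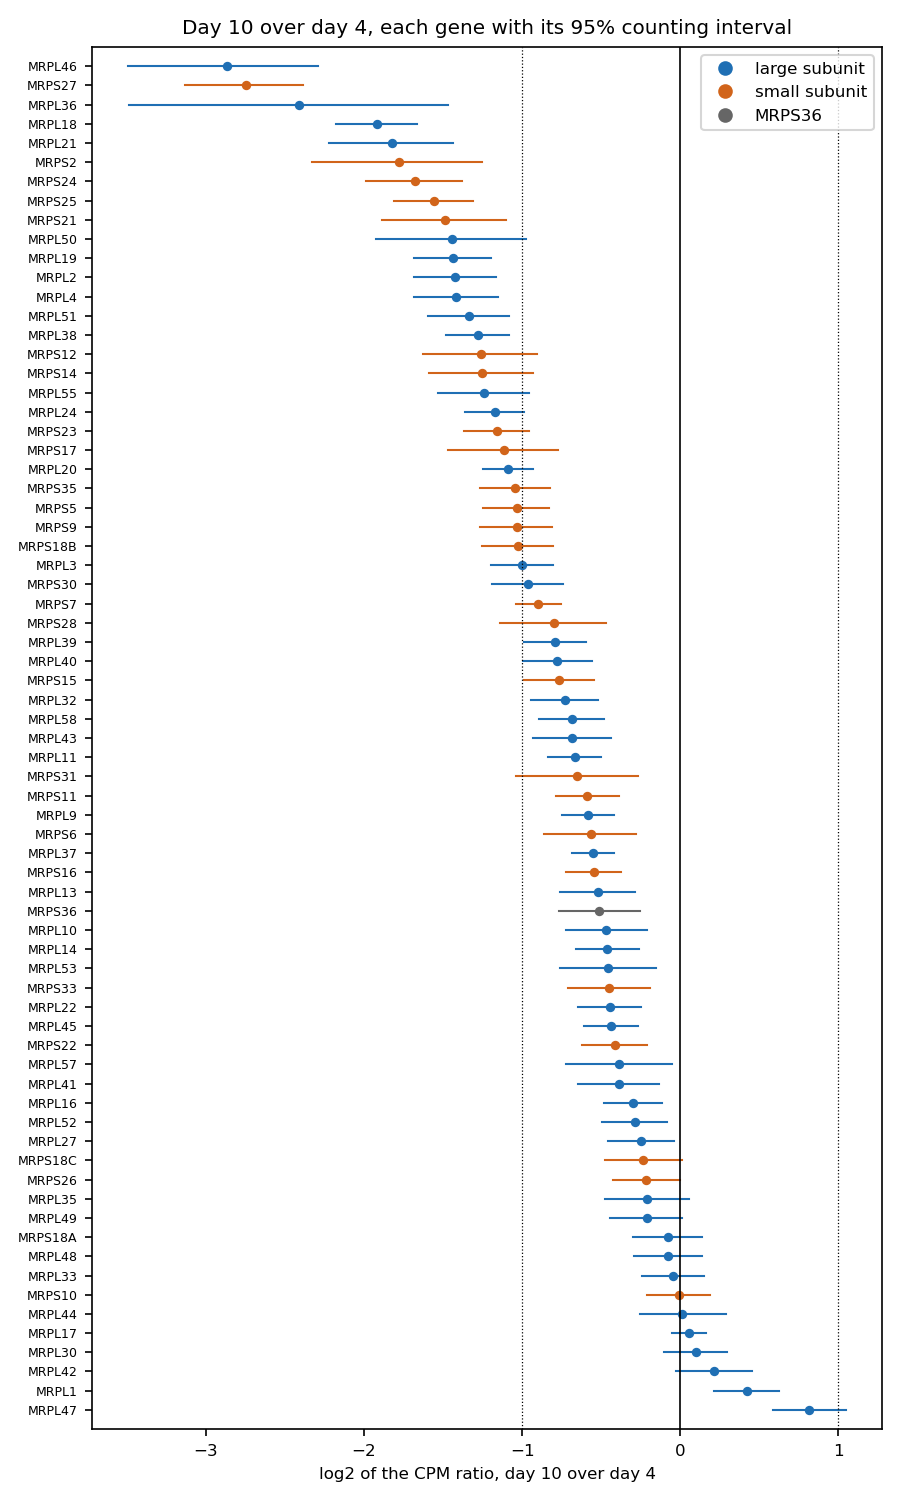
Log2 of the CPM ratio of day 10 over day 4 for each of the 71 genes (points) with its exact 95% counting interval (bars), sorted from lowest to highest; blue marks the large subunit, orange the small subunit and grey MRPS36, and dotted lines mark 2-fold. MRPL46 and MRPS27 lie lowest, all 25 small-subunit points lie below 0, and MRPL47 and MRPL1 lie highest.

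Messenger levels corrected for length differed widely between members. In the authors' deposited TPM the 71 genes ranged from 10.4 to 262.3 on day 4, from 5.6 to 256.8 on day 6 and from 2.1 to 205.5 on day 10. The ratio of the highest to the lowest was 25.2, 45.9 and 97.9 on days 4, 6 and 10, and rests on a few low genes. The upper quartile was 1.87, 2.32 and 2.33 times the lower on those days, so the middle of the distribution was about as wide on day 10 as on day 6. Medians were 65.8, 41.1 and 32.5 TPM, above the 12.9, 10.0 and 10.2 TPM of all measured genes. MRPL17 ranked highest and MRPS2 lowest in each library. MRPL20, MRPL33, MRPS16 and MRPS7 followed MRPL17 on day 4, with 212.6, 173.0, 152.0 and 145.2 TPM. On day 10 MRPL33 ranked second with 125.7 TPM, followed by MRPS16 at 80.3, MRPL20 at 77.3 and MRPL52 at 67.0 TPM. On day 6 the fifth place was taken by MRPL57, at 105.2 TPM. The order of the 71 genes by TPM had a Spearman rho of 0.88 between days 6 and 4, 0.83 between days 10 and 6 and 0.74 between days 10 and 4, given as a description over genes that share coding length and libraries.

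The members hold 107 coding sequences, and 23 genes have more than 1. Within those genes the largest spread between sequences was 0.27 on the log2 scale between day 4 and day 6, in MRPL22 (-0.44 to -0.17). It was 0.21 for both other comparisons: in MRPL22 between day 6 and day 10 (-0.14 to 0.07) and in MRPS10 between day 4 and day 10 (-0.05 to 0.16). Sequences with opposite signs were found in MRPS18A at the first step, in MRPL22 and MRPS10 at the second, and in MRPS10 over the whole interval. Fragments can be split between the sequences of a gene, and those of MRPL55 all have equal counts. Likeness within a gene is therefore partly built in. MRPL17 and MRPL49 have 1 coding sequence but fractional counts, so some of their fragments were split with other sequences. Processed copies of mitochondrial ribosomal protein genes are common in mammalian genomes, and how such fragments were assigned is not given in the sources used here.

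In the RefSeq gene table of the assembly mOryCun1.1, used for names and neighbours only, 69 of the 71 genes were found under their name. MRPS11 and MRPL46 are next to each other there, the only members with another member beside them. In CPM the 2 genes moved in opposite directions at the first step, and both were lower after the second. MRPS11 was at 48.8, 60.6 and 32.5 CPM on days 4, 6 and 10, and MRPL46 at 19.3, 6.39 and 2.64 CPM. In TPM both were lower at each step, MRPS11 at 86.8, 82.9 and 43.1 and MRPL46 at 23.4, 6.0 and 2.2. MRPS12 is next to SARS2, the mitochondrial seryl-tRNA synthetase, which had 20.4, 12.9 and 9.61 CPM.

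In that assembly 17 members overlap a neighbouring protein-coding gene, and fragments of such pairs may not be separable, since the strand setting is not given here. MRPS6 overlaps the inositol transporter gene SLC5A3, which dipped on day 6 as MRPS6 did, with 9.54, 4.89 and 14.2 CPM on days 4, 6 and 10. MRPL47 overlaps NDUFB5, a complex I subunit that was also highest on day 10, with 64.0, 98.2 and 126.9 CPM. MRPS27 overlaps PTCD2, at 22.9, 12.03 and 13.7 CPM, and MRPS25 overlaps NR2C2, at 15.1, 16.6 and 12.8 CPM. Other overlapping pairs moved in opposite directions on the log2 scale between day 4 and day 10. Among them were MRPS23 (-1.13) with CUEDC1 (0.88) and MRPL14 (-0.45) with TMEM63B (0.81). Without the 17 genes, 3 of the 54 members left fell between day 4 and day 6, against 6.73% of all measured genes. With all 71 members it was 5, or 7.04%. The summed ratio of day 10 over day 4 without the 17 genes was 0.621.

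Proteins of the mitochondrial ribosome that carry other names were followed as a separate list of 5, DAP3, PTCD3, CHCHD1, AURKAIP1 and GADD45GIP1. By day 10, 2 of them fell and 0 rose, 40.0% against 15.8% and 0% against 17.1% of all measured genes. PTCD3, a small-subunit protein with pentatricopeptide repeats, had 110.5, 50.8 and 29.1 CPM on days 4, 6 and 10, a fall of 3.8-fold [3.35 to 4.32]. GADD45GIP1, of the large subunit, had 32.6, 24.5 and 13.4 CPM on days 4, 6 and 10, 2.44-fold down [2.0 to 2.98]. DAP3, a GTP-binding protein of the small subunit, had 44.9, 43.5 and 36.4 CPM, and AURKAIP1 and CHCHD1 did not pass the threshold either.

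Of 26 measured factors that help to assemble the mitochondrial ribosome, 8 fell by day 10 and 0 rose (median -0.72), which is 30.8% against 15.8% and 0% against 17.1% of all measured genes. A lower level of any size was found in 18 and a higher level in 8. RCC1L had 71.4, 37.0 and 11.2 CPM on days 4, 6 and 10, 6.37-fold down [5.25 to 7.79]. FASTKD2, which binds the large ribosomal RNA, had 18.7, 5.56 and 3.58 CPM and was 5.23-fold down [3.69 to 7.6]. Between day 4 and day 6 FASTKD2, MTERF3 and TRUB2 fell, 11.5% of the list against 6.73% of all measured genes. Between day 6 and day 10 RCC1L and NOA1 fell, 7.69% against 7.1%, a share near that of all genes.

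The factors that work with the finished ribosome fell in 6 of 14 cases by day 10 and rose in 0 (median -0.75), 42.9% falling against 15.8% of all measured genes. GFM1, the elongation factor of translocation, had 103, 59.05 and 32.9 CPM on days 4, 6 and 10, 3.13-fold down [2.78 to 3.54]. TUFM, which brings tRNA to the ribosome, kept its level in CPM to day 6 and then fell, with 242, 241 and 106.5 CPM on days 4, 6 and 10. In TPM it was already lower on day 6, at 135.5, 104.9 and 45.8 on days 4, 6 and 10. LRPPRC, which stabilises mitochondrial messengers, fell at the first step, with 435, 206 and 193.5 CPM. Of 16 mitochondrial tRNA synthetases 7 fell by day 10 and 0 rose (median -0.84), 43.8% against 15.8% falling, with LARS2 4.15-fold down [3.29 to 5.29] and MARS2 5.12-fold down [2.97 to 9.36]. Of 9 genes for transcription and replication of mitochondrial DNA 2 fell, TFAM and SSBP1, and POLG2 rose 3.36-fold; 22.2% falling and 11.1% rising are near the 15.8% and 17.1% of all measured genes.

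In sum, the messengers that this ribosome translates differed less between the libraries. The 13 genes of mitochondrial DNA summed to 22103, 21704 and 21411 CPM on days 4, 6 and 10, and the day 10 sum was 0.969 of that on day 4 [0.963 to 0.974]. In TPM that ratio was 0.757. By day 10, 0 of the 13 had risen or fallen, against 17.1% rising and 15.8% falling among all measured genes. Single genes moved more at the first step, where ND6 and ND3 fell, 15.4% of the list against 6.73% of all measured genes. They had 331, 145 and 224 CPM and 172, 83.3 and 183 CPM on days 4, 6 and 10. ND3 rose again at the second step, 7.69% of the list against 8.25%. ND6 lies on the other strand from its neighbours, and its count may depend on how strand was treated.

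Nuclear genes for complex I and for the cytosolic ribosome took other courses in CPM between day 4 and day 10. These 2 lists were formed by name after the values above were known. Of 30 genes named NDUF with a letter and digits, 1 fell by day 10, NDUFS3, and 0 rose (median -0.07). That is 3.33% falling against 15.8% of all measured genes and 0% rising against 17.1%. In CPM 21 of the 30 were higher on day 6 than on day 4, against 49.7% of all measured genes. From day 6 to day 10, 23 of the 30 were lower (median -0.24), against 50.6%. In TPM the day 10 sum of these 30 genes was 0.736 of that on day 4. Of 60 cytosolic ribosomal protein genes 16 rose and 0 fell (median 0.85), 26.7% rising against 17.1% of all measured genes, and they summed to 60348, 98604 and 106830 CPM on days 4, 6 and 10. The day 10 sum of the cytosolic genes was 1.77 times that of day 4, and 1.39 times in TPM, where the mitochondrial ribosomal genes had 0.636 in CPM and 0.494 in TPM.

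**Figure D4:**
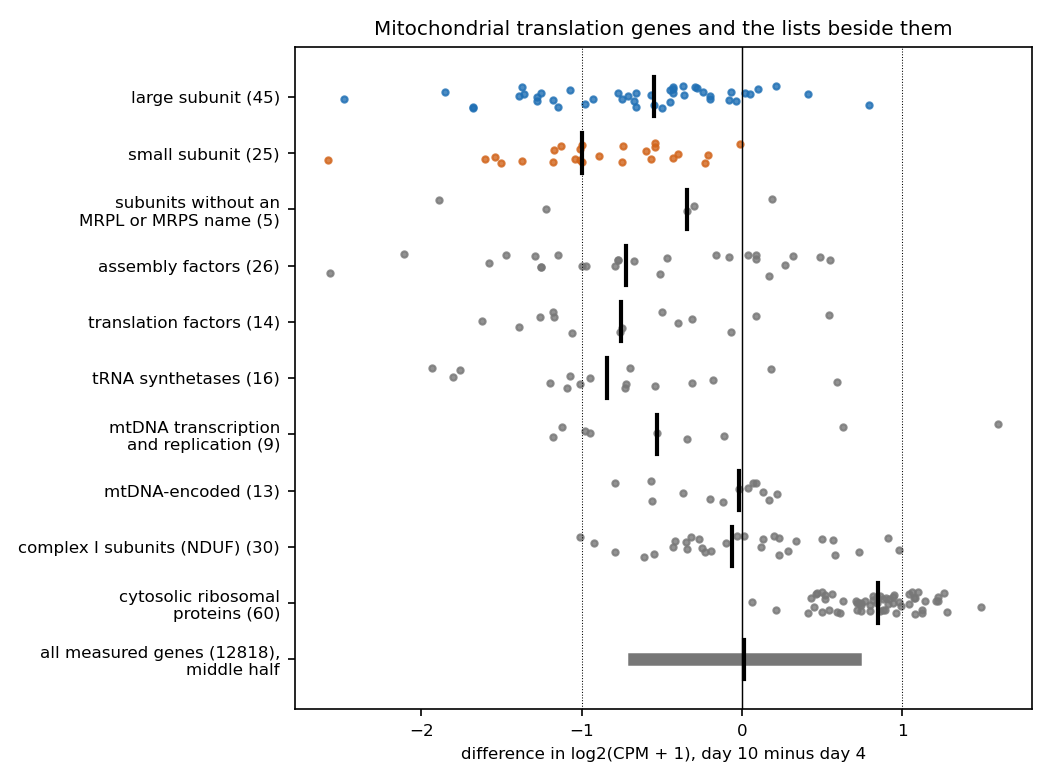
Difference in log2(CPM + 1) between day 10 and day 4 for each measured gene (points, spread vertically for display) of the large and small subunits and of the lists beside them, with the number of genes in brackets; black bars mark medians, the grey bar the interquartile range of all 12818 measured genes, and dotted lines 2-fold. The medians are -0.55 and -1.0 for the large and small subunits, -0.72 for assembly factors, -0.02 for genes of mitochondrial DNA and 0.85 for cytosolic ribosomal proteins.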

How the data were processed

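Per the file headers, the authors deposited for each coding sequence fragment counts and read counts, which are fractional and so expected counts, a coverage signal (raw transcript count), FPKM, RPKM and TPM, the last given to 1 decimal. Per the submitters' processing notes the genome build is OryCun2.0; for aligner, counter and strand setting the sources used here give nothing. Fragment counts were summed over the 38696 rows by gene name, rounded to whole numbers and scaled with TMM factors of 1.071, 0.958 and 0.974 (edgeR 4.0.16 in R 4.3.3). The planned design assumed whole counts. Genes reaching 1 CPM in at least 1 library counted as measured. Differences used a pseudocount of 1 CPM; a call needed 2-fold. Intervals were computed with scipy 1.17.1, and the functions were tested on simulated data. Alternatives were no TMM, DESeq2 1.42.0 size factors, TPM, other minimums, pseudocounts and fold, and the highest coding sequence per gene. Read counts, transcript counts, FPKM and RPKM were not used. Tests were not run, since each stage has 1 library.

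Every member is accounted for. Values in each library were to be printed for the 4 largest rises and 4 largest falls per comparison with at least 5 CPM, the 5 highest by TPM per library, called members, those under 10 fragments, the MRPS18 paralogs and MRPS36; other members named were chosen after their values were seen. Members, gene lists and this rule were chosen with earlier results of these data known.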

Additional observations from a re-analysis of the deposited data

How the results depend on the processing

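In each alternative run the median difference of the members stayed below 0 in all 3 comparisons. Without TMM the summed ratio was 0.773 for day 6 over day 4 and 0.578 for day 10 over day 4, and the median of all measured genes moved by -0.14 and -0.11. DESeq2 size factors gave 0.85 for day 6 over day 4. With TPM the summed ratios were 0.695 (day 6 over day 4), 0.711 (day 10 over day 6) and 0.494 (day 10 over day 4), 11 genes fell between day 4 and day 6, and the medians were -0.55 for that step and -1.06 for day 10 against day 4; the median of all genes was then -0.30 and -0.31. A pseudocount of 5 left 3, 4 and 16 fallen genes for day 6 against day 4, day 10 against day 6 and day 10 against day 4, beside 3.52%, 3.53% and 10.3% of all measured genes. At 1.5-fold, 17, 27 and 38 genes fell and 1, 2 and 1 rose in the same order, against 18.0%, 19.2% and 27.6% falling and 19.6%, 19.1% and 29.0% rising among all measured genes. Without the 17 genes that overlap a neighbour, a choice made after seeing the data, 3 of 54 genes fell at the first step, against 6.73% of all measured genes. The summed ratios were then 0.707 (day 10 over day 6) and 0.621 (day 10 over day 4). Leaving out MRPS36, also chosen after seeing the data, moved no such value by more than 0.02. For 38 named genes, 912 values under the alternatives held 24 lost and 23 gained calls. A further 38 values were classed as moved, 34 in TPM and 4 without TMM, and 827 as the same. No called value changed sign, but 16 values short of 2-fold did, 10 in TPM and 6 without TMM, among them day 10 against day 4 for MRPL17, MRPL30 and MRPL44 in both and MRPL42 in TPM. The cause was not tested. No paired analysis was possible because each stage has 1 library. Depth limits MRPL36, MRPL46 and MRPS2 most, with 11, 28 and 39 fragments on day 10.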
